A study of Mus musculus with 8 samples.

Results

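The Galnt genes encode polypeptide N-acetylgalactosaminyltransferases, and 10 of them (Galnt1, Galnt2, Galnt3, Galnt4, Galnt6, Galnt7, Galnt9, Galnt10, Galnt11 and Galnt12) were followed here among 22911 genes with a symbol on the array. These enzymes sit in the Golgi and attach N-acetylgalactosamine from UDP-GalNAc to serine or threonine, the first step of mucin-type O-glycosylation. Several family members act mainly on unmodified peptides, others prefer peptides that already carry a sugar, and later enzymes extend or sialylate the first sugar. Epithelial cells make large amounts of such glycans on mucins and on many membrane proteins.

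RNA came from TEC71, an immortalized mouse medullary thymic epithelial cell line, and was measured on 8 single-colour Agilent arrays. The groups were knock-in clone 1 (n = 3 arrays) and knock-in clone 3 (n = 2 arrays), both with the Gtf2i T1211A change, and the knock-in control (n = 3 arrays). Gtf2i encodes the transcription factor TFII-I. The control received Cas9 nickase with a single guide RNA. Each knock-in group is 1 clone, so a clone's own features and the knock-in cannot be told apart within it. The array titles do not say whether the control is a clone or a pool. Both clones are compared with this same control, so a feature of the control alone would appear as a like difference in both. The labels do not say that replicate arrays came from separate cultures, so the p-values measure only the spread between arrays, which may be technical.

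All 10 genes had at least 1 probe, and 9 were tested. Testing required a signal well above background throughout 1 group or more, and 8 of the 9 genes had one on all 8 arrays. Levels are given in log2 units around each array's 75th percentile, so 0 marks that percentile and a difference of 1 is a doubling. The family was chosen from results of these same arrays, so differences of the Galnt genes are described with their standard errors and 95% intervals, and their count past the threshold is no independent evidence. The threshold is a Benjamini-Hochberg adjusted p of 0.05 in limma, over 25353 genes and unnamed transcripts.

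Array-wide, 55.31% to 59.31% of probes were well above background and no probe was saturated. The brightest probe for Gtf2i fell by 0.46 in clone 1 and by 0.59 in clone 3 (limma adjusted p = 0.00754 and 0.00421). Neither call held with the array row as a block (adjusted p = 0.0789 and 0.125). Its dimmer probes gave -0.45 and -0.25 in clone 1 and -0.46 and -0.42 in clone 3. With the mean of all probes the differences were -0.38 in clone 1 and -0.49 in clone 3. An expression probe does not show whether the T1211A change is present. Of 12 thymic epithelial markers, 9 were above background on all 8 arrays, Aire on 3, and Fezf2 and Ccl21a on none. Epcam (1.44 to 1.74 on the knock-in arrays and 2.54 to 2.68 on the control arrays), Krt5 (5.35 to 5.84 and 6.57 to 7.18) and Cd80 (-2.57 to -1.66 and 0.11 to 0.48) read lower on every knock-in array. Cldn4 read higher on every one, at 2.99 to 3.58 on the knock-in arrays and 1.75 to 1.94 on the control arrays. Krt14, Krt8, Krt18, Cldn3 and Foxn1, the rest of those above background throughout, overlapped between knock-in and control arrays. The summed thymic epithelial level also overlapped, at 8.42 to 8.66 on the knock-in arrays and 8.59 to 8.98 on the control arrays. Of 7 fibroblast markers, 2 were above background on all arrays and 4 (Pdgfrb, Dcn, Lum and Thy1) on none. Their summed level ran from -1.14 to -0.71 on the knock-in arrays and from -0.08 to 0.26 on the control arrays. Of the 2 genes above background throughout, Pdgfra read -2.24 to -1.53 on the knock-in arrays and -0.44 to -0.1 on the control arrays. The other, Col1a2, overlapped between them (-3.49 to -2.29 and -3.23 to -2.37), so the lower sum is not shared by both genes. Of 5 endothelial markers, 4 were above background on no array. Of 7 haematopoietic markers, 4 were above background throughout, while Ptprc, the pan-leukocyte gene, was so on 1 of 8 arrays. The summed haematopoietic level was 2.90 to 3.46 on the knock-in arrays and 2.85 to 3.43 on the control arrays. The part of these markers in the Galnt results was not tested. The closing numbers of each array title were read here as a row and a column, which the labels do not spell out. On that reading the 3 control arrays and clone 1 replicate 1 lay in row 1 and the other arrays in row 2.

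Promoter sequences from RefSeq (GRCm38.p6) were found for 6 of the 10 genes. They are shown for the gene with the deepest fall (Galnt6, which has 2 annotated starts), for another gene that was lower in both clones (Galnt10) and for the gene that was higher in both (Galnt3), so that promoters of genes that moved together or apart can be read side by side. Each run holds the 250 bases upstream of the start, 5′ to 3′ on the gene's strand, with capitals marking GGGCGG or its reverse complement. The Galnt6 windows lie on the minus strand at chr15:100729377-100729626 and chr15:100720478-100720727, the Galnt10 window on the plus strand at chr11:57645192-57645441, and the Galnt3 window on the minus strand at chr2:66124794-66125043.
Galnt6 first start: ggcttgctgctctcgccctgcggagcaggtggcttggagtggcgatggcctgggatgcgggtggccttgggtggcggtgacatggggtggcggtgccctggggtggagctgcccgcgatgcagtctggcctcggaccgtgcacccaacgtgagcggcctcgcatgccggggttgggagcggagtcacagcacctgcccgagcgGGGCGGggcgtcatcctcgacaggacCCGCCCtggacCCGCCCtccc
Galnt6 second start: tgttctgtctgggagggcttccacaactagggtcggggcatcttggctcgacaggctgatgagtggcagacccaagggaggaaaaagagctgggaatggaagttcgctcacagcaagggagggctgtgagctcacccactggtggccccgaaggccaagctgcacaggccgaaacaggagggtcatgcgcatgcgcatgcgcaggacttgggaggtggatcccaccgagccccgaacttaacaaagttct
Galnt10: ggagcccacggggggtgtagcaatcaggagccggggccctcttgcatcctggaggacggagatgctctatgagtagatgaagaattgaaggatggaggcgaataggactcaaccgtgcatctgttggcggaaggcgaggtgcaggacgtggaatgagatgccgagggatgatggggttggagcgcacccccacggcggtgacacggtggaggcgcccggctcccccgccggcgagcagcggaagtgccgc
Galnt3: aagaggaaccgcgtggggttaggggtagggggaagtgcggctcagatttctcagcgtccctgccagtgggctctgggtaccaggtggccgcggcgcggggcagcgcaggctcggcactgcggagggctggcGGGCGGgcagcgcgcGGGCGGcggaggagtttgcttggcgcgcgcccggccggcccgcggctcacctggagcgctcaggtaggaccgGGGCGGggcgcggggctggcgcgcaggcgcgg

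These windows were searched on both strands for CACGTG (the E-box), GGGCGG (the GC box), TATAAA and CCAAT, which do not overlap one another in these matches. The first Galnt6 window held 3 GC boxes, starting at -47, -21 and -10 from the start, in 72.8% G and C. The second Galnt6 window held none of the motifs at 59.6% G and C. The Galnt10 window likewise held none, at 64.4% G and C. The Galnt3 window held 3 GC boxes, at -119, -104 and -32, in 76.8% G and C. Over 32851 mouse promoter windows of the same length, 6.02% held the E-box, 32.7% the GC box, 12.4% TATAAA and 33.8% CCAAT. The GC box was thus present beside a gene that was lower in the clones and beside the gene that was higher. It was also found in a window of each of Galnt7 and Galnt11, which did not pass the threshold, and of Galnt9, which was not tested. These matches are descriptions of letters, not binding sites.

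In both knock-in clones the Galnt family moved unevenly. Galnt6 was close to or below the limit of detection in the clones and bright in the control, Galnt12, Galnt10 and Galnt1 were lower, Galnt3 was higher, and Galnt2, Galnt4, Galnt7 and Galnt11 did not pass the threshold. Of the 9 tested genes, 1 was past the threshold upward and 4 downward in clone 1, where 14.7% of everything tested was called higher and 16.5% lower. The same 5 genes were past it in clone 3, where 13.3% was called higher and 17% lower. Over the array, 11.3% was called higher in both clones and 12.2% lower in both. Nothing is read from these counts, because the same contrasts were used to choose the family. The median difference of the 9 genes was -0.15 in clone 1 and -0.29 in clone 3, beside -0.05 and -0.04 over everything tested. Both medians are the values of Galnt7, and nothing is read from them for the same reason. Both clone comparisons share the 3 control arrays. In bulk RNA, fewer expressing cells and less RNA per cell cannot be told apart.

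**Figure D1:**
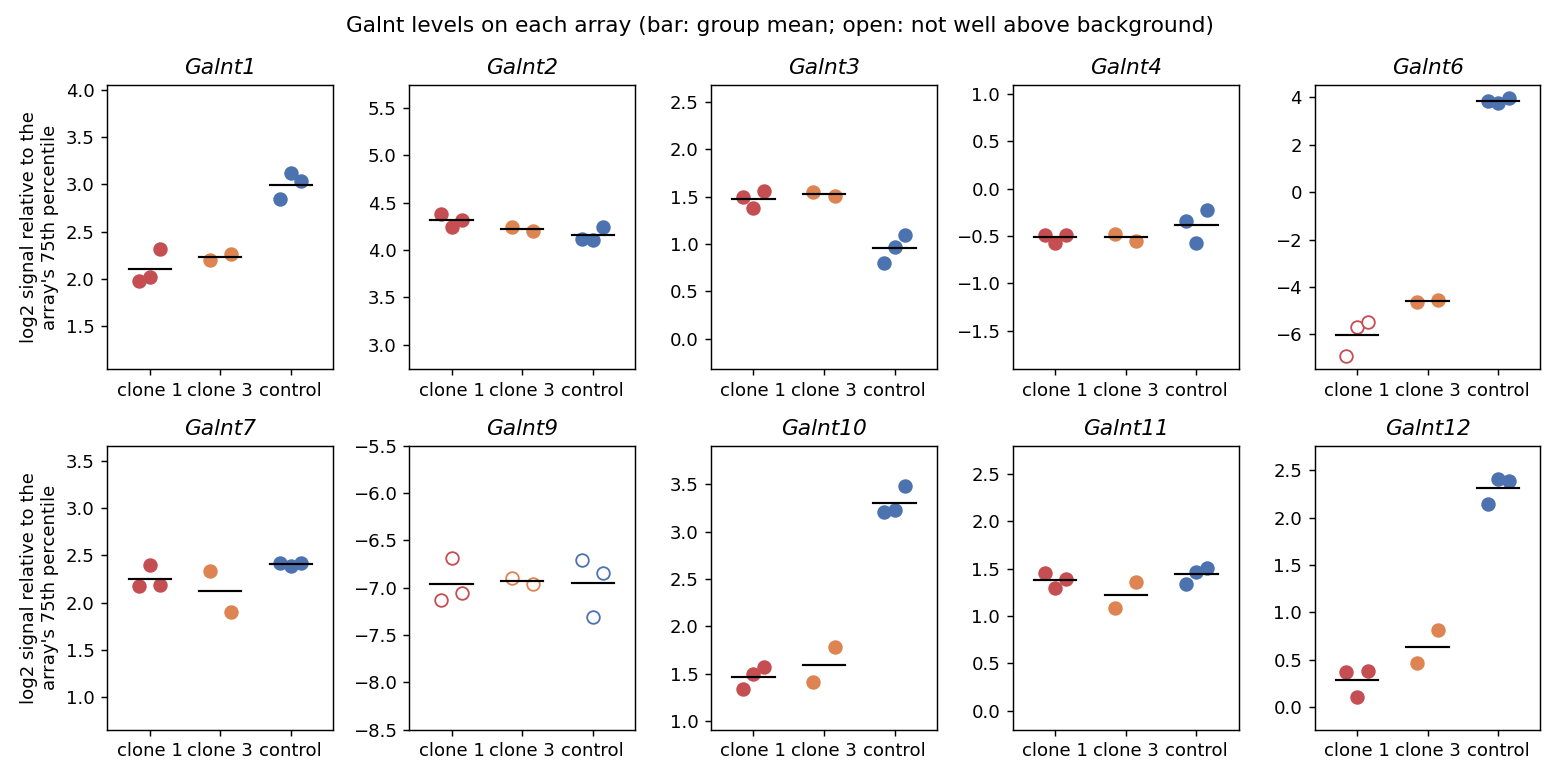
Level of each Galnt gene on each array, as log2 signal relative to the array's 75th percentile (vertical axes, each with its own range), for clone 1, clone 3 and the control; points are arrays, bars are group means and open points were not well above background. Galnt6, Galnt12, Galnt10 and Galnt1 sit lower on all 5 knock-in arrays than on any control array, and Galnt3 sits higher.

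Among enzymes that act on unmodified peptides, Galnt1 and Galnt2 are broadly expressed. Galnt1 read 1.98, 2.02 and 2.32 in clone 1 and 2.20 and 2.26 in clone 3, against 2.84, 3.12 and 3.03 in the control. All 5 knock-in arrays lay below the lowest control array. The difference was -0.89 ± 0.13 in clone 1 (SE), or 1.85-fold lower, and -0.76 ± 0.14 in clone 3, or 1.70-fold lower. Galnt2 read 4.38, 4.24 and 4.32 in clone 1 and 4.24 and 4.20 in clone 3, against 4.12, 4.11 and 4.24 in the control. The groups overlapped at their edges, and the differences of 0.16 (95% interval -0.07 to 0.38) in clone 1 and 0.07 (-0.19 to 0.32) in clone 3 did not pass.

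Galnt3 and Galnt6 are close relatives within the family. Galnt3 is known for glycosylating the hormone FGF23, which protects it from cleavage. Galnt3 read 1.5, 1.38 and 1.56 in clone 1 and 1.55 and 1.51 in clone 3, against 0.80, 0.97 and 1.09 in the control. Every knock-in array exceeded every control array, by 0.52 ± 0.11 (1.44-fold) in clone 1 and 0.57 ± 0.13 (1.49-fold) in clone 3 on group means (SE). It was the only Galnt gene of the 9 past the threshold upward. Under normexp background correction and quantile scaling the differences were 0.38 in clone 1 and 0.25 in clone 3. That alternative starts from each spot's median signal and its background, not from the processed signal.

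Galnt6, for which the human enzyme is known to modify fibronectin, showed the opposite order. It read -6.91, -5.68 and -5.47 in clone 1 and -4.64 and -4.55 in clone 3, against 3.84, 3.76 and 3.98 in the control. The control arrays were tightly grouped and bright, no clone 1 array was well above background, and both clone 3 arrays were just above it. Clone 1 therefore has only an approximate bound, 445-fold or more below the control. The bound sets each clone 1 array at no less than the lowest signal called well above background there. A brighter signal was not always called. On clone 1 replicate 1 the lowest called signal was -5.448, while Cela1 at -5.17 was not called. All bounds given here are therefore approximate. In clone 3 the measured difference was -8.45 ± 0.36 (SE), which is 350-fold lower. That SE pools the spread of all 3 groups. The SD was 0.78 in clone 1, from readings not well above background, beside 0.06 in clone 3 and 0.11 in the control. The sizes depend on how the signals are processed. Under normexp background correction with quantile scaling the differences were -6.14 in clone 1 and -6.01 in clone 3. With the mean of both probes they were -7.51 and -6.88. The 445-fold bound and the 350-fold difference thus hold only for the processed signals of the brighter probe. The promoter of its first start is the one with the 3 GC boxes above.

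Galnt11 is known for modifying members of the LDL receptor family. Galnt11 read 1.46, 1.30 and 1.39 in clone 1 and 1.09 and 1.36 in clone 3, against 1.34, 1.47 and 1.51 in the control. The groups overlapped, with differences of -0.06 (-0.32 to 0.21) in clone 1 and -0.21 (-0.51 to 0.08) in clone 3, and neither passed.

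Of the enzymes that favour peptides already carrying a sugar, Galnt10 and Galnt12 were lower and Galnt4 and Galnt7 were not called. Galnt10 read 1.34, 1.5 and 1.57 in clone 1 and 1.41 and 1.78 in clone 3, against 3.21, 3.23 and 3.48 in the control. The highest knock-in array was well below the lowest control array. The difference was -1.84 ± 0.14 (3.57-fold lower) in clone 1 and -1.72 ± 0.16 (3.28-fold lower) in clone 3 (SE). Its promoter window above held none of the 4 motifs.

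Galnt12, whose human counterpart is prominent in the digestive tract, read 0.37, 0.11 and 0.38 in clone 1 and 0.46 and 0.81 in clone 3, against 2.14, 2.41 and 2.39 in the control. No knock-in array came near the control range. The difference was -2.02 ± 0.14 (4.06-fold lower) in clone 1 and -1.67 ± 0.16 (3.19-fold lower) in clone 3 (SE).

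Galnt4 read -0.49, -0.57 and -0.49 in clone 1 and -0.48 and -0.55 in clone 3, against -0.34, -0.58 and -0.23 in the control. The knock-in arrays fell inside the control range, and both differences were -0.13, with intervals of -0.40 to 0.14 in clone 1 and -0.43 to 0.17 in clone 3. Galnt7 read 2.18, 2.40 and 2.19 in clone 1 and 2.34 and 1.90 in clone 3, against 2.42, 2.39 and 2.42 in the control. Clone 1 overlapped the control and clone 3 lay below it, with differences of -0.15 (-0.46 to 0.16) in clone 1 and -0.29 (-0.63 to 0.06) in clone 3 that did not pass. Galnt9, known mainly from the nervous system, was not well above background on any array, and its readings of -7.13 to -6.69 on the knock-in arrays and -7.31 to -6.71 on the control arrays have no order.

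**Figure D2:**
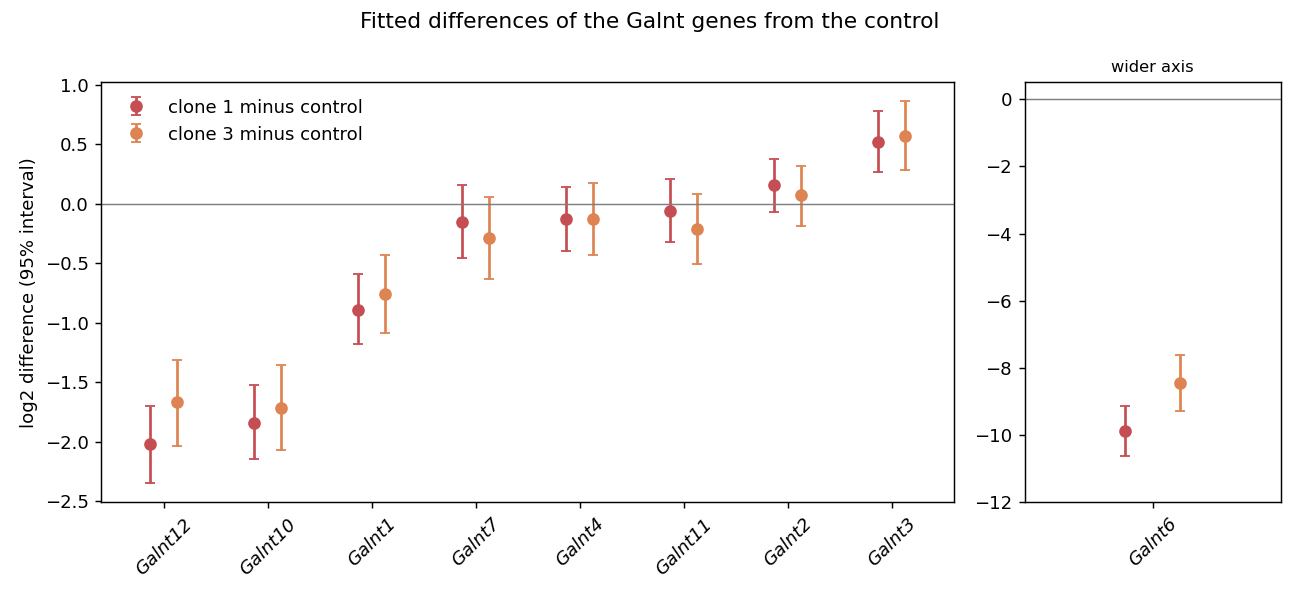
Fitted log2 difference of each tested Galnt gene from the control (vertical axis), for clone 1 and clone 3, with 95% intervals; Galnt6 has its own, wider axis. The clone 1 point of Galnt6 at -9.88 rests on readings that were not well above background, Galnt12, Galnt10 and Galnt1 lie below 0 and Galnt3 above it.

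Galnt1, Galnt6, Galnt7 and Galnt10 each had a second, dimmer probe. For Galnt1 it gave -0.83 in clone 1 and -0.47 in clone 3, and for Galnt10 it gave -1.49 and -1.33, the same direction as the brighter probe. For Galnt7 it gave -0.12 in clone 1 and -0.30 in clone 3. For Galnt6 the brighter and the dimmer probe are assigned to different RefSeq transcripts. The dimmer Galnt6 probe was not well above background on any of the 5 knock-in arrays and read -1.78, -1.82 and -1.54 in the control. Its approximate bounds were at least 9.37-fold lower in clone 1 and at least 8.98-fold lower in clone 3. Both Galnt6 probes were thus well above background on all 3 control arrays and at or near background in the clones.

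**Figure D3:**
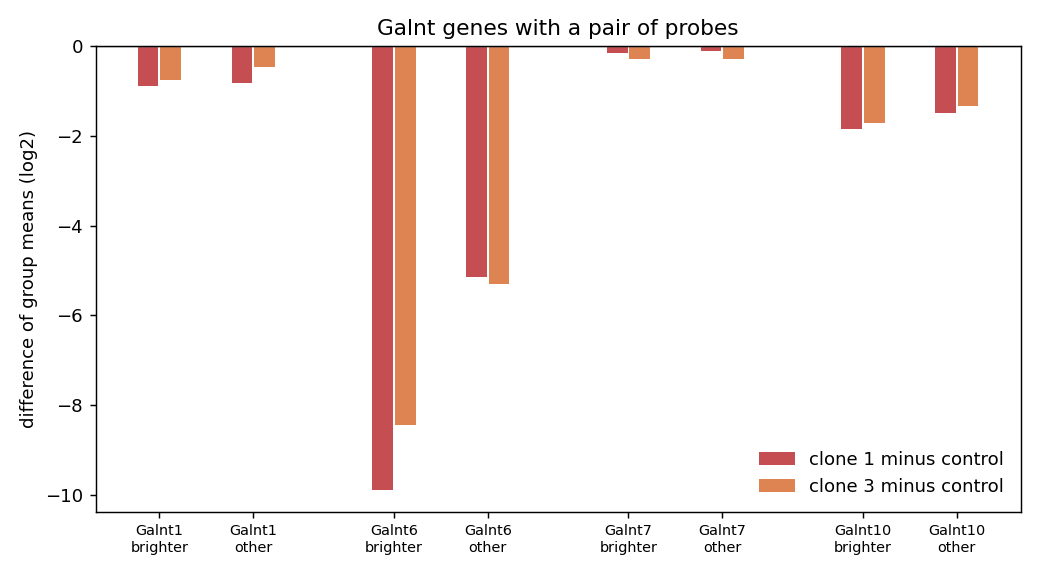
Difference of group means (log2, clone minus control; bars start at 0) for the brighter and the other probe of the 4 Galnt genes with 2 probes, clone 1 beside clone 3. Both probes of Galnt1, Galnt6 and Galnt10 lie below 0, and the size of a Galnt6 bar is limited by background on the knock-in arrays.

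The clones were also set against each other. No Galnt gene passed the threshold between clone 3 and clone 1, where 0.0749% of everything tested was called by limma (19 features, and 2734 at an unadjusted p under 0.05). Without Galnt6, differences of clone 3 minus clone 1 ran from -0.16 to 0.35 over 8 genes, with intervals reaching from -0.48 to 0.71. Galnt12 had the difference of 0.35 (-0.01 to 0.71), since its clone 3 readings of 0.46 and 0.81 were higher than those of clone 1. Galnt6 had a fitted difference of 1.43 (0.59 to 2.26) on its brighter probe. No clone 1 array was well above background there, so that difference has no firm size. Under normexp and quantile scaling Galnt6 differed from the control by -6.14 in clone 1 and -6.01 in clone 3. Its dimmer probe, not well above background in either clone, read -6.86 in clone 1 and -7.01 in clone 3. No difference between the clones is therefore read from Galnt6. For the other genes the intervals leave room for differences between the clones.

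The array row is partly shared with the groups, as row 2 holds no control array. With the row as a block, Galnt6, Galnt10 and Galnt12 stayed past the threshold in both clones and Galnt1 in clone 1. Galnt1 in clone 3 (-0.95) and Galnt3 in clone 1 (0.54) and clone 3 (0.60) no longer passed. Within row 1, the clone 1 array differed from the control mean by -10.77 for Galnt6, -1.97 for Galnt10, -1.94 for Galnt12, -1.01 for Galnt1 and 0.54 for Galnt3. Each of these has the sign of the full comparison, and row 1 holds no clone 3 array.

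Other family members and later steps of the pathway came from lists chosen by role. Over 67 such genes, 60 had a probe and 41 were tested. Of the 41, 6 were higher in both clones, 6 lower in both and 29 neither, with a median difference of 0.01 in each clone. Everything tested had 11.3% higher and 12.2% lower in both clones, and each list below reads against these shares. Without the filter on dim probes, 8 of these genes passed in both clones. Of 9 further GalNAc-transferases, 2 were tested, and Galnt5, Galnt13, Galnt15, Galnt16, Galnt17, Galntl5 and Galntl6 were not.

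Galnt18 had the largest fall of the 41. It read -0.02, -0.17 and 0.00 in clone 1 and -0.43 and -0.49 in clone 3, against 3.01, 2.87 and 3.05 in the control. The groups were far apart, at -3.04 in clone 1 (8.23-fold lower, limma adjusted p = 3.07e-07) and -3.44 in clone 3 (10.8-fold lower, adjusted p = 4.37e-07). Its other probe fell alike, with differences of -3.01 and -3.18. Galnt14 did not pass, at 0.18 in clone 1 (limma adjusted p = 0.276) and -0.06 in clone 3 (adjusted p = 0.771).

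Of 8 tested core extension genes, which build on the sugar that the Galnt enzymes attach, 3 were past the threshold upward in both clones and none downward, against 11.3% and 12.2% of everything tested. Gcnt3 is among the 3, but it entered the test only through the clones, where it is high. C1galt1, the core 1 galactosyltransferase, rose by 0.36 in clone 1 and 0.59 in clone 3 (limma adjusted p = 0.0327 and 0.00671). C1galt1c1, its chaperone Cosmc, did not pass at 0.18 and 0.05. B4galt4, a galactosyltransferase, read 4.55, 4.43 and 4.64 in clone 1 and 4.52 and 4.48 in clone 3, against 2.97, 2.94 and 3.16 in the control, a rise of 1.52 and 1.48 (adjusted p = 2.24e-05 and 6.31e-05). Gcnt3, a core 2 branching enzyme, read -3.39, -3.48 and -3.48 in clone 1 and -4.22 and -3.69 in clone 3, against -4.78, -4.93 and -5.83 in the control, where 1 of 3 arrays was above background, so its fitted differences of 1.73 and 1.22 have no firm size. Gcnt1, another core 2 enzyme, was not tested, as it was above background on 2 of 3 control arrays and on no knock-in array. With the row as a block, C1galt1 no longer passed in clone 1 (0.31) or clone 3 (0.51), nor Gcnt3 in clone 3 (1.31). Gcnt3 was 0.39 in clone 1 and 0.24 in clone 3 under normexp and quantile scaling, and 0.86 and 0.64 with the mean of all probes. In clone 3 it missed the threshold under normexp and without clone 3 replicate 2 (0.96), and in clone 1 within row 1 (1.79).

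Of 7 tested sialyltransferases, 1 rose in both clones and 2 fell, against 11.3% and 12.2% of everything tested. St3gal4 read 1.54, 1.57 and 1.66 in clone 1 and 1.24 and 1.55 in clone 3, against -0.40, -0.23 and -0.15 in the control, and rose by 1.85 and 1.65 (limma adjusted p = 1.34e-05 and 6.14e-05). St3gal1, which sialylates core 1, fell by 0.56 in clone 1 and 0.78 in clone 3 (adjusted p = 0.0288 and 0.0113). Its other probe gave -0.07 and -0.17. St3gal2 fell by 0.58 and 0.83 (adjusted p = 0.0044 and 0.00145), with differences of -0.80 and -0.71 on its other probe. With the row as a block neither passed, St3gal1 at -0.69 and -0.98 and St3gal2 at -0.54 and -0.77. With the mean of all probes St3gal1 was -0.31 in clone 1, which did not pass, and -0.47 in clone 3.

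Of 11 tested genes that supply sugar donors, 1 rose in both clones and 2 fell, shares near the 11.3% and 12.2% of everything tested. Gnpnat1, of UDP-GlcNAc synthesis, rose by 0.55 and 0.83 (limma adjusted p = 0.00504 and 0.00134). Galk2, a GalNAc kinase, fell by 0.49 and 0.66 (adjusted p = 0.00651 and 0.00286). Slc35d1, a nucleotide sugar transporter, fell by 0.71 and 0.52 (adjusted p = 0.00327 and 0.0236). With the row as a block Galk2 passed in both clones, and Gnpnat1 (0.42 and 0.63) and Slc35d1 (-0.65 and -0.43) in neither. Under normexp Slc35d1 in clone 3 was -0.34. Among possible acceptors, 3 mucins were tested and none passed in both clones. Muc5ac differed by -0.54 in clone 1 (limma adjusted p = 0.0191) and -0.42 in clone 3 (adjusted p = 0.0734), and neither Muc13 (-0.16 and -0.23) nor Muc20 (-0.06 and 0.11) passed in a clone. Muc5ac in clone 1 did not pass with the row as a block (-0.66) or under normexp (-0.18). Of 10 tested mucin-like membrane glycoproteins, Cd34 rose by 0.69 and 0.91 (adjusted p = 0.00561 and 0.00283). Pdpn (podoplanin) fell by 0.52 and 0.63 (adjusted p = 0.044 and 0.0322). Pdpn no longer passed with the row as a block (-0.62 and -0.79) or with median scaling (-0.48 and -0.55), and Cd34 passed with the block.

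**Figure D4:**
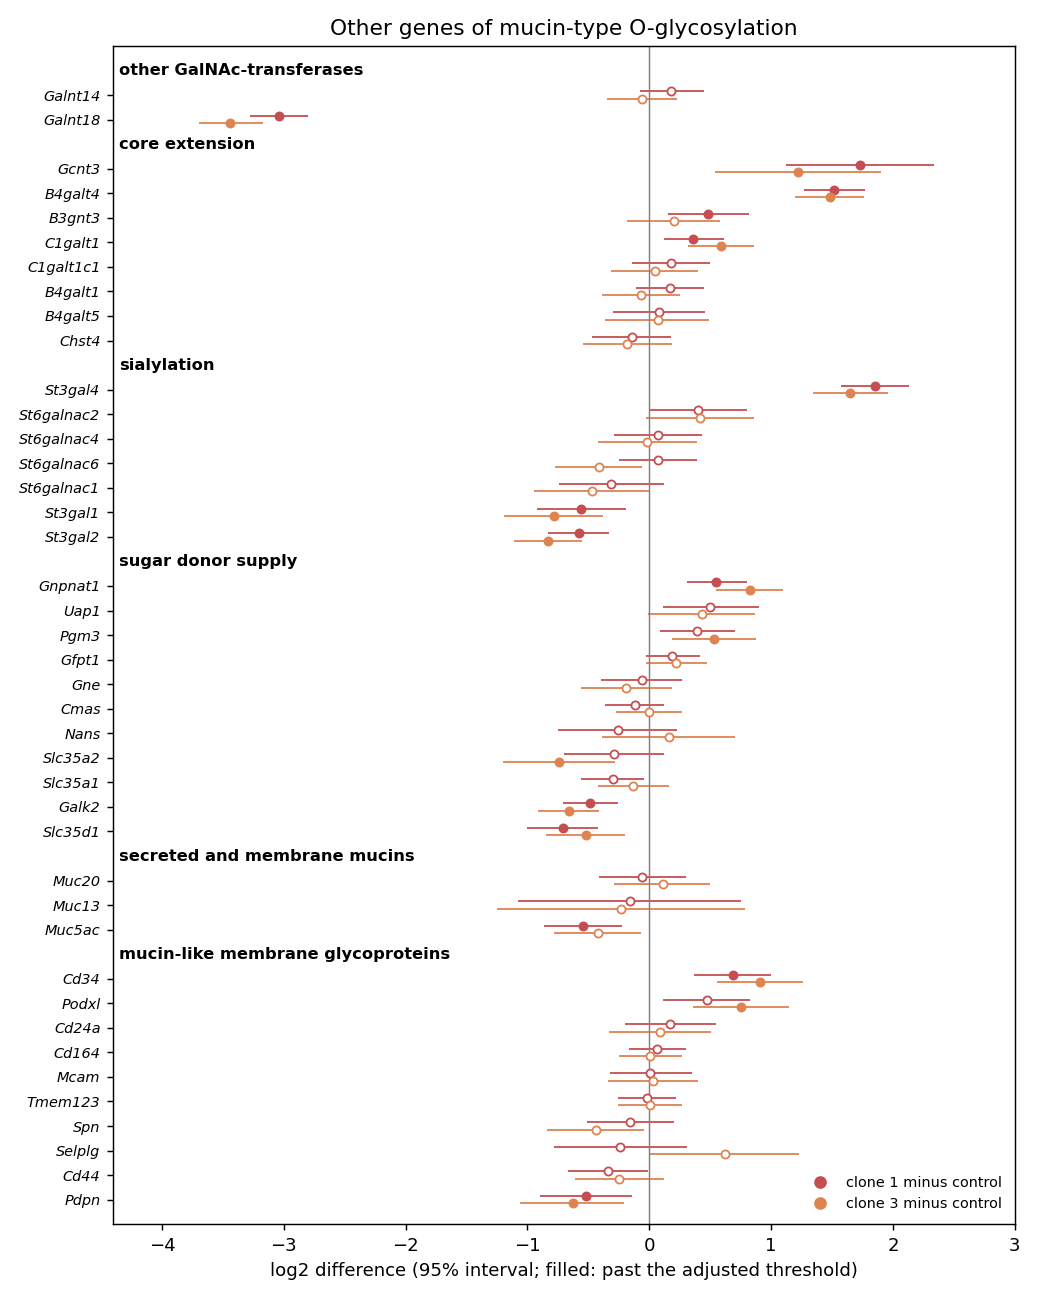
Fitted log2 differences from the control (horizontal axis) with 95% intervals for the 41 tested genes of the other pathway lists, clone 1 above clone 3 for each gene; filled points pass the adjusted threshold. Galnt18 stands at -3.04 and -3.44, and St3gal4, Gcnt3 and B4galt4 have the highest values.

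Profiles closest to a Galnt gene were sought over all 8 arrays among 13563 genes with a symbol above background throughout, as the root mean square difference of log2 levels after subtracting each gene's control mean. For Galnt3 the closest were Nfkbib and Vps41 (0.042 each) and Rsu1 (0.05). For Galnt12, the deepest fall among those of the 10 genes that were above background on all arrays, they were Tfrc (0.13), Apln (0.134) and Eif4e3 (0.144). Tfrc encodes the transferrin receptor, and it differed by -1.95 in clone 1 and -1.61 in clone 3. The 8 arrays share 1 control group, so this likeness describes these arrays only.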

How the data were processed

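The authors deposited each spot's processed intensity, linear and already corrected for background. Per the submitters' processing notes, the software was Agilent Feature Extraction, version 11.5.11. Each array held 62976 spots, 3671 of them controls. Outlier spots (114 to 242 per array) were left out, intensities deposited by the authors were converted here to log2 and reduced by the array's 75th percentile, and spots of a probe were averaged. Transcript accessions were matched to RefSeq names of GRCm38.p6, which named 32994 of 56605 probes. The file headers name another build, so no array coordinates are given. The brightest probe represented a gene. One limma 3.58.1 fit (R 4.3.3) of 3 groups gave two-sided tests with Benjamini-Hochberg adjustment. It had 5 residual and 3.38 prior degrees of freedom, and was tested on simulated data. The number of arrays limits the precision.

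The members and lists were chosen with earlier results of these data known. The text names all 10 Galnt genes, Gtf2i, pathway genes past the threshold in both clones (at most 6 a list), members of lists with 4 or fewer tested, and the 3 profiles closest to the highest-rising and the deepest-falling of the 10 genes, among those above background on all arrays. C1galt1c1, Gcnt1 and the genes beside Galnt genes were named after their values were seen. One alternative was normexp with offset 50 and quantile scaling, run on the median spot and background signals in place of the processed ones. The rest were median or quantile scaling, other filters, the mean of all probes, a robust variance trend, the array row and each array left out.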

Additional observations from a re-analysis of the deposited data

How the results depend on the processing

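With the array row as a block, 3 Galnt genes passed in clone 3 and 3 in both clones, beside 5 and 5 in the reported fit, and 5 other pathway genes passed in both clones, beside 12. Without the filter on dim probes that count was 8, and C1galt1, St3gal1 and Muc5ac in clone 1, Gcnt3 and Slc35d1 in clone 3 and Pdpn in both clones missed the threshold. Row 2 holds no control array, so the row effect of that fit rests on clone 1, the only group with arrays in both rows. Within row 1 alone, where clone 3 has no value, 4 Galnt genes passed in clone 1 and Galnt3 (0.54) did not; that fit has 1 clone 1 array, assumed to vary like the 3 controls. Counting only genes above background on all 8 arrays leaves out Galnt6. Galnt3 in clone 3 also missed the threshold without clone 3 replicate 1 (0.55), and Galnt7 in clone 3 was -0.51 without that array and -0.38 under normexp, which passed, and -0.06 without clone 3 replicate 2, which did not. Leaving out single arrays, 5 Galnt genes passed in each clone every time (Galnt7 in place of Galnt3 in clone 3 without clone 3 replicate 1), and 4 to 5 in both. No called value of the Galnt genes, the named pathway genes or Gtf2i changed sign under any alternative run. Of the other genes, C1galt1 in clone 1 missed the threshold without any 1 of control replicates 2 and 3 and the clone 1 arrays (0.32 to 0.39). St3gal1 in clone 1 missed it without any 1 control array or clone 1 replicate 1 or 3 (-0.6 to -0.49), and in clone 3 without clone 3 replicate 2 (-0.49). Slc35d1 in clone 3 missed it without control replicate 1 (-0.47) or 3 (-0.52) or clone 3 replicate 2 (-0.42). Pdpn missed it in clone 1 without any 1 array but control replicate 3 (-0.57 to -0.38), and in clone 3 without control replicate 1 or 2 or either clone 3 array (-0.67 to -0.5). Muc5ac in clone 1 missed it without control replicate 3 (-0.44) or clone 1 replicate 1 (-0.48) or 3 (-0.53), and Muc13 in clone 3, where its arrays read -3.18 and -4.94, was -1.11 without replicate 1, which passed, and 0.65 without replicate 2, which did not. Alternatives were not run for the genes beside Galnt6. No paired analysis was possible because replicate numbers do not tie arrays of different groups to a shared culture. Background limits Galnt6 and Galnt9.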

Other observations

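Protein-coding genes beside the Galnt genes in RefSeq order were examined by position after the Galnt values were seen. Other kinds of genes were skipped in that order. Of the 40 protein-coding genes within 2 places on either side, 29 were tested. Among these, 8 were lower and 1 higher in both clones, beside 12.2% and 11.3% of everything tested. On one side of Galnt6, Cela1 was not well above background on any knock-in array, and read -2.56, -2.58 and -2.79 in the control. Its approximate bounds were at least 4.6-fold lower in clone 1 and at least 4.71-fold lower in clone 3. It entered the test only through the control, where it is high. On the other side, Slc4a8 read -3.08, -2.76 and -2.84 in clone 1 and -2.80 and -3.08 in clone 3, against -1.72, -1.41 and -1.96 in the control (limma adjusted p = 0.000906 in clone 1 and 0.00156 in clone 3). The other Slc4a8 probe gave differences of 0.05 and -0.29, so the probes of that gene disagree. Scn8a, further along, differed by -0.36 and -0.39 and did not pass.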
